A study of Mus musculus with 9 samples.

Results

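Solute carriers are the membrane proteins that move sugars, amino acids, ions, vitamins and metabolites into and out of cells and organelles, and their transcripts were described in mouse F9 cells given vehicle, retinoic acid (RA) or trichostatin A (TSA). A probe set was counted as a solute carrier when the array's platform annotation gave it 1 gene symbol and that symbol began with Slc and a number. This rule took 185 of the 12422 probe sets tested and 151 of the 8251 genes they name, and it used no measured value. The 185 probe sets were sorted into 12 classes by the substrate of the encoded protein. In 3 of the genes, Slc9a3r1, Slc9a3r2 and Slc4a1ap, the symbol names a protein that binds or regulates a carrier and is not itself a transporter. Another probe set carried both Slc22a28 and Slc22a30 as symbols and was left out. Transporters with other symbols were not counted.

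F9 is an embryonal carcinoma line derived from a mouse teratocarcinoma, and RA drives it towards endoderm. The study hybridised total RNA to 9 Affymetrix arrays, 3 for each of 3 groups: cells kept for 24 h in medium with ethanol as vehicle, cells given RA at 0.5 µM for 24 h, and cells given TSA, an inhibitor of histone deacetylases, at 0.07 µM for 24 h. All groups are 1 cultured line, no other genotype was used, and the labels do not say whether the replicates were separate cultures. The deposited value of a probe set is its signal divided by its own mean over the vehicle arrays, so 1 is the vehicle level, and neither brightness nor the levels of different genes can be compared.

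Carriers of the SLC families work as facilitators, which let a substrate run down its gradient, or as coupled transporters and exchangers, which use gradients of sodium, protons or another solute. Embryonal carcinoma cells grow fast on glucose and glutamine, taken up by Slc2 and Slc1 family carriers, and amino acid exchange by Slc7 proteins feeds the growth-control kinase mTORC1. Carriers of the mitochondrial inner membrane belong to the Slc25 family, and Slc30 and Slc39 proteins move zinc in opposite directions.

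The regions upstream of the transcription start are shown for 5 of the 7 genes that passed the test against vehicle, because these are the carriers whose transcripts moved with RA or TSA. No upstream sequence was listed for Slc6a15 and Slc7a3. The sequences are 250 bases long, run 5′ to 3′ on the gene's strand up to the base before the start, and come from RefSeq (GRCm38.p6). They lie at chr2:126552774-126553023 on the plus strand for Slc27a2, chr2:129198523-129198772 on the plus strand for the first of 2 starts of Slc20a1, chr14:54781887-54782136 on the minus strand for Slc7a8, chr11:115163091-115163340 on the plus strand for Slc9a3r1 and chrX:36795347-36795596 on the plus strand for Slc25a5. Capitals mark 3 motifs searched on both strands: AGGTCA (or TGACCT), the core hexamer of nuclear receptor sites such as those of RA receptors, GGGCGG (or CCGCCC), the GC box, and CACGTG, the E-box.
Slc27a2: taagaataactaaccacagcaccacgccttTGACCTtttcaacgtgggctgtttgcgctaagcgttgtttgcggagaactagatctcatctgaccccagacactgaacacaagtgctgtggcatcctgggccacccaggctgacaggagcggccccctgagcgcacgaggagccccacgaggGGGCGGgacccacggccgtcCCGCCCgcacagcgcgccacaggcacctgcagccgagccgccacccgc
Slc20a1: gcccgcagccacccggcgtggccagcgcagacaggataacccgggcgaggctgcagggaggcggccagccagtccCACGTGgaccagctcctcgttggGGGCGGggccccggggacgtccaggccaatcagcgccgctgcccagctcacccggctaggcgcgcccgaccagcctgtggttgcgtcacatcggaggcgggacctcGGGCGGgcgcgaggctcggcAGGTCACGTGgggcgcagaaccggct
Slc7a8: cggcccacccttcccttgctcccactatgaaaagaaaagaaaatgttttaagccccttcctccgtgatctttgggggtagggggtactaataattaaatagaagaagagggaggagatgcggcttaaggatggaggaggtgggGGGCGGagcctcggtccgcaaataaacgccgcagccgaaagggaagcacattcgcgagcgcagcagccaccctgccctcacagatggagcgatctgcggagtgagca
Slc9a3r1: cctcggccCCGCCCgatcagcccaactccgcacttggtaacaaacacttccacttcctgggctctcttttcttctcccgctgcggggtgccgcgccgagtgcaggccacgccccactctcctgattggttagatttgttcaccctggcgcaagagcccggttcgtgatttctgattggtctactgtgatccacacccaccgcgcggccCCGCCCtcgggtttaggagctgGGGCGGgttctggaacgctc
Slc25a5: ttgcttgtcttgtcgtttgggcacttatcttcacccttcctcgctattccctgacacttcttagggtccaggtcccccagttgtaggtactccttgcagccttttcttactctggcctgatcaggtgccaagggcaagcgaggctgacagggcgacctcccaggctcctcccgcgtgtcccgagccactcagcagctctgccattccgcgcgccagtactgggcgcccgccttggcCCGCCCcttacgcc
The window of Slc27a2 held TGACCT starting 220 bases before the start, and that of Slc20a1 held AGGTCA starting 26 bases before it, overlapping a CACGTG that starts 22 bases before it. The window of the second start of Slc20a1, not shown, held TGACCT starting 75 bases before it. Neither AGGTCA nor CACGTG was found in the windows of Slc7a8 and Slc9a3r1, whose transcripts rose in TSA, or of Slc25a5, which fell as Slc20a1 did. GC boxes numbered 2 in the window of Slc27a2, 2 in that of Slc20a1 shown, 1 in Slc7a8, 3 in Slc9a3r1 and 1 in Slc25a5. AGGTCA was present in 14.9% of the 175 solute carrier windows and in 14% of all 32851 windows of the same length, GGGCGG in 54.9% and 32.7%, and CACGTG in 12% and 6.02%. A match describes the letters only. Windows were listed for 124 of the 151 genes.

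Medians of the ratio over all probe sets ran from 0.822 to 1.02 across the arrays, and over the solute carriers from 0.981 to 0.996 in vehicle, 0.912 to 0.968 in RA and 0.856 to 0.910 in TSA. Probe sets for 18S ribosomal RNA had a median ratio of 2.4 in vehicle replicate 3, 0.961 in RA replicate 3, 0.538 in vehicle replicate 1 and at most 0.073 on the other arrays. Genes of embryonal carcinoma cells (10 genes, 12 probe sets) were lower in RA (mean log2 ratio -1.34 to -1.06) and in TSA (-0.83 to -0.63) than in vehicle (-0.16 to 0.21), with 5 and 3 probe sets called lower. Endoderm genes (16 genes, 25 probe sets) ran from 0.52 to 0.65 in RA, -0.28 to 0.29 in vehicle and 0.00019 to 0.074 in TSA, with 4 probe sets called higher in RA and 2 in TSA. Fibroblast, muscle or feeder genes (14 genes, 19 probe sets) ran from 0.50 to 0.70 in TSA, -0.47 to 0.37 in vehicle and -0.22 to -0.03 in RA, with 5 called higher in TSA. These ranges are of means over each list. The median change of the probe sets was -0.92 in RA and -0.63 in TSA for the embryonal carcinoma genes. It was 0.20 and -0.18 for the endoderm genes, and -0.08 and 0.09 for the fibroblast, muscle or feeder genes. Without vehicle replicate 3 and RA replicate 3, 0 solute carriers passed in RA (27 at an unadjusted p under 0.05), 3 in TSA and 12 in RA against TSA, and 8 of 20 calls ended: those of Slc20a1 (adjusted p = 0.0752 in RA and 0.0625 in TSA), Slc27a2 (0.0714 in RA and 0.0959 in RA against TSA), Slc7a3 (0.0625), Slc7a8 (0.0615) and Slc9a3r1 (0.0698) in TSA, and Slc2a4 (0.0932) in RA against TSA, by limma. The part of the marker shifts in the results for the carriers was not tested, and fewer cells of a type and less RNA per cell cannot be told apart in such bulk samples.

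Changes are differences of log2(ratio + 0.05) from 1 limma fit over the 9 arrays, and a probe set passed at a Benjamini-Hochberg adjusted p under 0.05 over all 12422 probe sets. RA against vehicle called 2 of the 185 solute carrier probe sets (1.08%), where it called 1.36% of all probe sets. Both fell: the fatty acid transporter Slc27a2 and the phosphate importer Slc20a1. No solute carrier rose in RA by limma, where 0.934% of all probe sets rose and 0.427% fell. At an unadjusted p under 0.05, 12 solute carrier probe sets were higher and 16 lower, where 4.64% and 8.03% of all probe sets were. The arrays of RA and vehicle did not overlap for 12 that were higher in RA (5.93% of all probe sets) and 21 that were lower (11% of all probe sets), 17.8% of the carriers against 17% of all probe sets.

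TSA against vehicle called 6 solute carrier probe sets (3.24%, against 3.48% of all probe sets). The amino acid transporter Slc7a8 and the scaffold protein Slc9a3r1 rose, and Slc20a1, the amino acid transporters Slc7a3 and Slc6a15 and the mitochondrial ADP/ATP carrier Slc25a5 fell. Of all probe sets 2.21% rose and 1.27% fell, and at an unadjusted p under 0.05, 14 solute carrier probe sets were higher and 22 lower, where 7.41% and 12.2% of all probe sets were. The split of 2 higher and 4 lower turned to 5 higher and 1 lower when the arrays were centred on their medians, a step that moved the median of all probe sets from -0.17 to 0.03. Centring added rises of the vitamin C transporter Slc23a2 (1.26, adjusted p = 0.0428 by limma with Benjamini-Hochberg adjustment), the acetyl-CoA transporter Slc33a1 (1.22) and the metal transporter Slc11a1 (1.86), and kept Slc7a8, Slc9a3r1 and Slc7a3. TSA and vehicle arrays did not overlap for 20 that were higher (9.26% of all probe sets) and 34 that were lower (17.1%), 29.2% against 26.3% of all probe sets.

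RA against TSA called 12 solute carrier probe sets of 11 genes (6.49%, against 3.91% of all probe sets), 5 higher and 7 lower in RA than in TSA, where 1.7% and 2.21% of all probe sets were. The 5 higher in RA were sugar and vitamin transporters: both probe sets of the glucose transporter Slc2a3, 1 of Slc2a4, the vitamin C transporter Slc23a1 and the folate transporter Slc46a1. The 7 lower in RA were Slc4a5, Slc11a1, Slc27a2, Slc7a8, Slc7a7, Slc9a3r1 and Slc29a1. For 9 of the 12 probe sets neither comparison with vehicle passed. Arrays of RA and TSA did not overlap for 27 solute carrier probe sets that were higher in RA (13.8% of all probe sets) and 33 that were lower (13.5%), 32.4% against 27.3% of all probe sets. Only Slc20a1 passed in both comparisons with vehicle, which share the vehicle arrays.

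**Figure D1:**
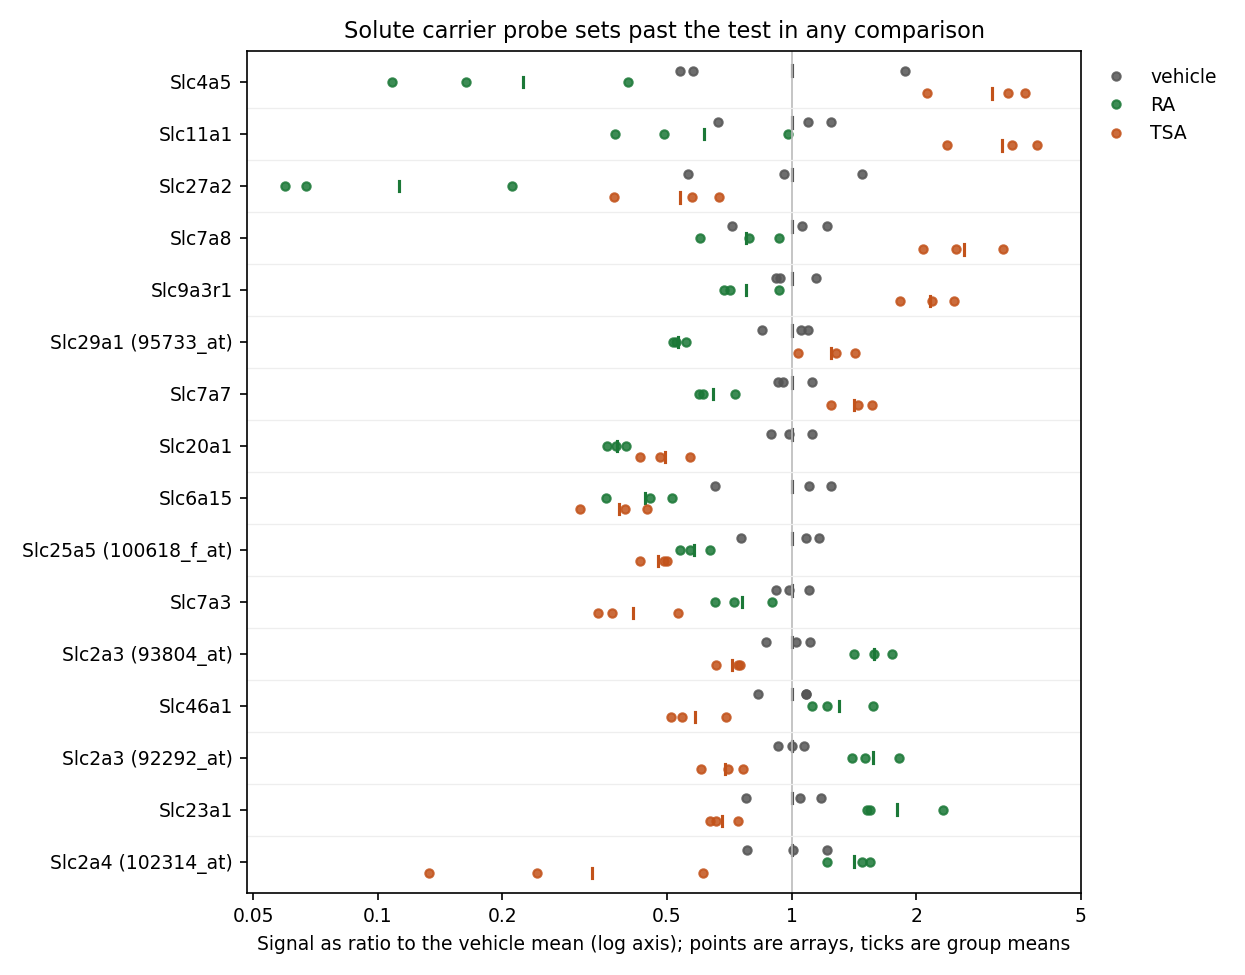
Signal of the 16 solute carrier probe sets that passed in any comparison, as the ratio to the vehicle mean on a log axis; each point is 1 array and each tick a group mean of 3 arrays. RA points of Slc27a2 lie between 0.0596 and 0.211, and the RA and TSA points of Slc4a5, Slc11a1 and Slc2a4 do not overlap.

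In the fatty acid and organic acid class (15 probe sets, 13 genes), Slc27a2 was the single carrier that passed. It did so in RA and in RA against TSA (6.67% of the class in each, beside 1.36% and 3.91% of all probe sets). Slc27a2, on chromosome 2, encodes a fatty acid transport protein that is also an acyl-CoA synthetase for very long chain fatty acids. Probe set 100967_at gave ratios of 1.48, 0.957 and 0.561 in vehicle, 0.0596, 0.211 and 0.0672 in RA and 0.667, 0.372 and 0.574 in TSA. All RA arrays lay below all arrays of both other groups, while TSA and vehicle arrays overlapped. The change was -2.71 ± 0.44 (SE) in RA (adjusted p = 0.0246, limma with Benjamini-Hochberg adjustment), -0.77 in TSA (0.378) and -1.94 in RA against TSA (0.0496). Without vehicle replicate 1 or 2, RA replicate 1 or 3, or TSA replicate 3, the call in RA against vehicle ended, at adjusted p of 0.0501 to 0.101, with changes from -3.11 to -2.39 over all single left-out arrays. The difference from TSA ended without vehicle replicate 2, RA replicate 1 or 3, or any TSA array (0.0833 to 0.161).

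Other carriers of this class spread widely and did not pass. Slc27a5, a liver-type acyl-CoA synthetase of the same family, gave 0.258, 0.338 and 0.525 in TSA against 0.67, 1.36 and 0.971 in vehicle, a change of -1.31 ± 0.37 (adjusted p = 0.0982, limma). These arrays did not overlap. The lactate and pyruvate transporter Slc16a1 had changes of -0.50 in RA and -0.27 in TSA, with overlapping arrays. In TSA no probe set of the class passed by limma, with 2 higher and 3 lower at an unadjusted p under 0.05 (7.41% and 12.2% of all probe sets). The class median was -0.14 in RA and -0.17 in TSA, beside -0.12 and -0.17 for all probe sets, and it turned to 0.01 and 0.03 after centring.

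Slc20a1, also on chromosome 2, encodes a sodium-coupled importer of inorganic phosphate. Its probe set 103065_at gave 1.12, 0.891 and 0.988 in vehicle, 0.358, 0.399 and 0.376 in RA and 0.481, 0.569 and 0.431 in TSA. Every treated array lay below every vehicle array, and the RA arrays lay below the TSA arrays. The mean ratio was 0.378 ± 0.0201 in RA and 0.493 ± 0.0696 in TSA (SD, n = 3). The changes were -1.29 ± 0.18 in RA (adjusted p = 0.0143, limma with Benjamini-Hochberg adjustment) and -0.95 ± 0.18 in TSA (0.0302), and RA against TSA gave -0.34 (0.407). The RA call ended without any one of the RA arrays (0.0541 to 0.0676), and the TSA call ended without vehicle replicate 1 or 2, RA replicate 1 or 2, or any TSA array (0.0533 to 0.106) and after centring.

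The other 7 probe sets of the calcium and phosphate class passed in no comparison by limma, and none of them reached an unadjusted p under 0.05. Slc34a2, another sodium-phosphate cotransporter, had changes of 0.20 in RA and 0.22 in TSA. The 3 probe sets of the sodium-calcium exchanger Slc8a1 ran from -0.33 to 1.07 in RA and from -0.98 to 0.04 in TSA.

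Amino acid transporters formed the largest class, with 30 probe sets of 24 genes. In TSA 1 rose and 2 fell (10% of the class, beside 3.48% of all probe sets). In RA none passed by limma, with 2 higher and 2 lower at an unadjusted p under 0.05 (4.64% and 8.03% of all probe sets). The class median was 0.06 in RA and 0.15 in TSA, and 0.22 and 0.35 after centring. Slc7a8 on chromosome 14 encodes LAT2, a light chain that exchanges neutral amino acids when paired with the heavy chain Slc3a2. Probe set 104214_at gave 1.22, 1.06 and 0.719 in vehicle, 0.934, 0.789 and 0.601 in RA and 2.5, 2.08 and 3.25 in TSA. All TSA arrays lay above all others, and RA and vehicle arrays overlapped. The rise in TSA was 1.35 ± 0.27 (adjusted p = 0.0364, limma with Benjamini-Hochberg adjustment), and RA against TSA gave -1.69 ± 0.27 (0.0148). The rise passed in only 1 of the 9 fits that left out 1 array, the one without RA replicate 3 (0.0505 to 0.117 in the others), and the difference between RA and TSA ended without RA replicate 2, TSA replicate 1 or TSA replicate 3 (0.0553 to 0.0578).

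Slc7a7 on chromosome 14 encodes another light chain, y+LAT1, which exports cationic amino acids in exchange for neutral ones. Its probe set 103818_at gave 1.12, 0.954 and 0.927 in vehicle, 0.73, 0.598 and 0.611 in RA and 1.56, 1.24 and 1.44 in TSA. The 3 groups did not overlap, with RA lowest and TSA highest. Neither comparison with vehicle passed (-0.59 in RA and 0.48 in TSA), but RA against TSA gave -1.08 ± 0.18 (adjusted p = 0.0177, limma), a call that ended without RA replicate 2 or 3 or any TSA array (0.0532 to 0.0767).

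Slc7a3, the cationic amino acid transporter CAT3, lies on the X chromosome. Probe set 93133_at gave 1.1, 0.917 and 0.983 in vehicle, 0.897, 0.654 and 0.725 in RA and 0.532, 0.34 and 0.367 in TSA. TSA arrays lay below all others. It fell in TSA by 1.20 ± 0.22 on the log2 scale (adjusted p = 0.0252, limma), and RA gave -0.38 (0.521). The call ended without vehicle replicate 1 or 2 or TSA replicate 2 or 3 (0.0682 to 0.121).

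Slc6a15 on chromosome 10 encodes a sodium-coupled transporter of branched-chain and other neutral amino acids. Ratios of probe set 161036_at were 1.1, 1.25 and 0.654 in vehicle, 0.355, 0.456 and 0.513 in RA and 0.447, 0.308 and 0.395 in TSA. Both treated groups lay below vehicle and overlapped each other. The fall passed in TSA (-1.24 ± 0.28, adjusted p = 0.0484, limma) and the change in RA, -1.06 ± 0.28, did not (0.13); RA against TSA gave 0.18. The TSA call held in 1 of 9 fits without 1 array, the one without vehicle replicate 3 (0.0663 to 0.193 in the others), and ended after centring.

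Among the general amino acid carriers of growing cells, no probe set passed. The heavy chain Slc3a2 gave 0.683, 0.551 and 0.59 in TSA against 0.994, 0.927 and 1.08 in vehicle, a change of -0.68 ± 0.20 (adjusted p = 0.106, limma) with no overlap. Its main partner Slc7a5, the LAT1 light chain, had changes of -0.20 in RA and -0.14 in TSA (0.06 after centring), and the cystine-glutamate exchanger Slc7a11 had 0.26 and -0.20. The arginine and lysine transporter Slc7a1 had -0.67 and -0.59, with RA replicate 3 at 0.246 beside 0.956 and 0.907 in the other RA arrays.

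The Slc1 family takes up glutamate, aspartate and neutral amino acids, and its members other than Slc1a5 are named here after their values were seen. All 6 probe sets of its 5 genes had positive changes in both treatments (37.7% of all probe sets did in RA and 36.1% in TSA), with medians of 0.84 in RA and 0.80 in TSA. No probe set passed by limma, with 2 higher in RA and 3 in TSA at an unadjusted p under 0.05 (4.64% and 7.41% of all probe sets). The medians stayed positive under all 18 alternatives that kept probe sets apart, from 0.67 to 1.02 in RA and from 0.61 to 1.06 in TSA. The median of the Slc6 family, followed in the same way, was -0.08 in RA and -0.40 in TSA. With the main fit counted, it kept its sign in 14 of 19 settings in RA (-0.26 to 0.23) and in 18 of 19 in TSA (-0.45 to 0.25). The glutamine transporter Slc1a5 gave 3.06, 3.08 and 1.67 in RA and 1.15, 1.14 and 0.912 in TSA, against 1.09, 0.652 and 1.26 in vehicle. Its RA arrays lay above all others, the change was 1.33 ± 0.32 in RA (adjusted p = 0.105, limma) and 0.13 in TSA, and RA against TSA gave 1.20 (0.0835).

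The glutamate transporter Slc1a1 had its larger values in TSA. Probe set 104747_at gave 3.4, 6.92 and 2.09 in TSA and 0.829, 0.579 and 1.59 in vehicle, and 104748_s_at gave 3.7, 3.74 and 4.06 against 0.261, 1.87 and 0.873. For both, TSA arrays lay above vehicle without overlap, with changes of 1.94 ± 0.48 (adjusted p = 0.0684) and 2.24 ± 0.56 (0.0715) by limma. Averaged to 1 value per gene, Slc1a1 rose in TSA by 2.09 (adjusted p = 0.0131 over 8251 genes). That setting called 7 solute carrier genes in TSA, 4 higher and 3 lower.

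**Figure D2:**
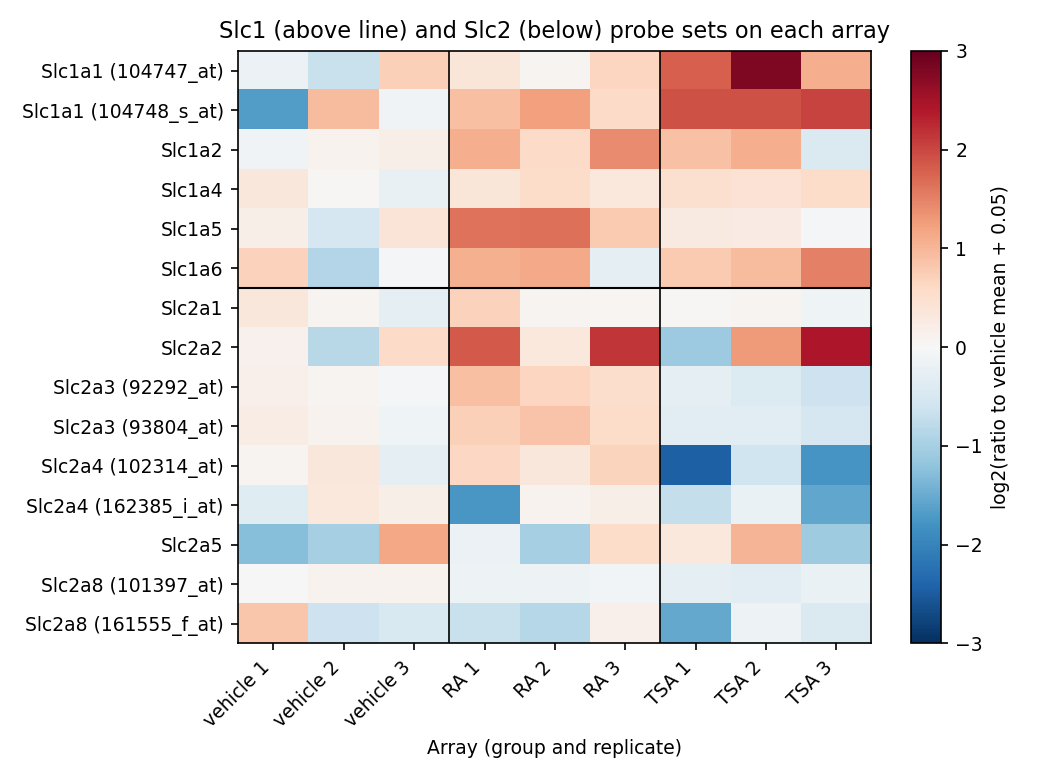
Log2(ratio to the vehicle mean + 0.05) of every Slc1 and Slc2 probe set (rows) on each of the 9 arrays (columns), red above and blue below the vehicle mean. Slc1a1 is reddest on the TSA arrays and Slc1a5 on the RA arrays, and both Slc2a3 rows are red in RA and blue in TSA.

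Sugar transporters (12 probe sets, 9 genes) held 3 of the 5 probe sets that were higher in RA than in TSA, 2 of Slc2a3 and 1 of Slc2a4 (25% of the class, beside 1.7% of all probe sets). Slc2a3 on chromosome 6 encodes GLUT3, a high-affinity glucose transporter of embryonic cells and neurons. Its probe set 92292_at gave 1.07, 1 and 0.928 in vehicle, 1.82, 1.5 and 1.4 in RA and 0.764, 0.702 and 0.603 in TSA, and 93804_at gave 1.11, 1.03 and 0.866, then 1.58, 1.75 and 1.41, then 0.749, 0.741 and 0.657. In both probe sets the 3 groups did not overlap, with RA highest and TSA lowest. Against vehicle the changes were 0.62 (adjusted p = 0.185) and 0.64 (0.162) in RA and -0.51 (0.184) and -0.45 (0.219) in TSA, which did not pass. RA against TSA gave 1.13 ± 0.19 (0.0153) and 1.09 ± 0.18 (0.016) by limma with Benjamini-Hochberg adjustment. Without RA replicate 1 or 2 or TSA replicate 2 or 3 both calls ended, and without TSA replicate 1 that of 93804_at did (0.0553 to 0.0705).

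Slc2a4 on chromosome 11 encodes GLUT4, the insulin-regulated glucose transporter of muscle and fat. Probe set 102314_at gave 1.01, 1.21 and 0.779 in vehicle, 1.48, 1.22 and 1.55 in RA and 0.133, 0.611 and 0.242 in TSA. TSA arrays lay below all others. Slc2a4 differed between RA and TSA by 2.15 ± 0.43 (adjusted p = 0.0284, limma), while TSA against vehicle gave -1.66 ± 0.43 (0.076). The second probe set, 162385_i_at, gave only 0.34 for RA against TSA, with -0.53 in RA and -0.87 in TSA against vehicle. The gene did not pass when both were averaged. The call ended without any one of the RA arrays or without TSA replicate 1 or 3 (0.0718 to 0.102).

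The widely expressed glucose transporter Slc2a1 stayed close to vehicle, with 1.55, 1.01 and 0.989 in RA and 0.967, 1.02 and 0.865 in TSA against 1.22, 1 and 0.775. Its changes were 0.22 ± 0.25 in RA and -0.05 ± 0.25 in TSA, and the sign in TSA turned after centring (0.15). Of the 9 Slc2 probe sets of 6 genes, 3 passed in RA against TSA and 8 had a positive difference (88.9%, beside 54.2% of all probe sets). The family median was 0.22 in RA, -0.45 in TSA and 0.34 in RA against TSA, beside -0.12, -0.17 and 0.05 for all probe sets, and kept these signs in the same 18 alternatives. No sugar transporter passed against vehicle by limma, with 2 higher in RA and 3 lower in TSA at an unadjusted p under 0.05 (4.64% and 12.2% of all probe sets).

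Vitamin and cofactor transporters (13 probe sets, 10 genes) added 2 carriers higher in RA than in TSA (15.4% of the class, beside 3.91% of all probe sets called either way). Slc23a1, a sodium-coupled vitamin C transporter on chromosome 18, gave 0.774, 1.05 and 1.18 in vehicle, 1.52, 2.32 and 1.54 in RA and 0.634, 0.657 and 0.742 in TSA (104387_at). The 3 groups did not overlap. The difference between RA and TSA was 1.32 ± 0.24 (adjusted p = 0.0212, limma), with 0.81 in RA and -0.51 in TSA against vehicle, neither of which passed. The call ended without RA replicate 1 or 2 or any TSA array (0.0511 to 0.0895).

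Its relative Slc23a2, the vitamin C transporter of most tissues, ran the other way in TSA, with 2.04, 2.59 and 1.72 against 1.12, 1.17 and 0.708 in vehicle. The TSA arrays lay above vehicle, and the change of 1.06 ± 0.27 (adjusted p = 0.0731, limma) passed only after centring. RA gave 1.28, 0.875 and 0.966, overlapping vehicle. Slc46a1 on chromosome 11, the proton-coupled folate transporter, gave 1.58, 1.22 and 1.12 in RA and 0.544, 0.696 and 0.511 in TSA against 1.08, 1.09 and 0.829 (94339_at). RA and TSA arrays lay on either side of vehicle, and their difference was 1.09 ± 0.22 (adjusted p = 0.0296, limma), a call that ended without vehicle replicate 2 or any RA or TSA array (0.0564 to 0.114). The reduced folate carrier Slc19a1 had changes of -0.71 and -0.26 in RA and -0.53 and -0.43 in TSA over its 2 probe sets, none of which passed.

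Carriers of protons, bicarbonate, chloride and sulfate with their partners (19 probe sets, 19 genes, 6 of them Slc12 cation-chloride cotransporters) held the largest difference between RA and TSA. Slc4a5 on chromosome 6 encodes a sodium-bicarbonate cotransporter. Probe set 96599_at gave 0.537, 1.88 and 0.579 in vehicle, 0.108, 0.163 and 0.403 in RA and 3.33, 3.67 and 2.13 in TSA. RA arrays lay below and TSA arrays above all vehicle arrays. The vehicle arrays ran from 0.537 to 1.88, and neither comparison with vehicle passed (-1.85 ± 0.54, adjusted p = 0.17, and 1.75 ± 0.54, 0.124, by limma). RA against TSA gave -3.60 ± 0.54 (0.0107), a 12.1-fold difference, and the call ended without TSA replicate 2 (0.0519) and under quantile normalisation.

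Slc9a3r1 on chromosome 11 encodes NHERF1, a scaffold that holds the sodium-proton exchanger NHE3 and phosphate transporters at the apical membrane. Probe set 97243_at gave 1.14, 0.94 and 0.916 in vehicle, 0.934, 0.688 and 0.71 in RA and 1.83, 2.47 and 2.18 in TSA. TSA arrays lay above all others, with a mean of 2.16 ± 0.319 (SD, n = 3). It rose in TSA by 1.07 ± 0.21 (adjusted p = 0.0315, limma), a call that ended without vehicle replicate 2 or 3, RA replicate 2 or any TSA array (0.0538 to 0.14). RA against TSA gave -1.42 ± 0.21 (0.00978) and passed under all 19 alternatives.

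The chloride importer Slc12a2 had changes of -0.22 in RA and 0.41 in TSA, which did not pass. In RA no probe set of the class passed by limma, with 1 higher and 3 lower at an unadjusted p under 0.05 (4.64% and 8.03% of all probe sets). Its median was -0.14 in RA, 0.0016 in TSA and -0.15 in RA against TSA.

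Metal transporters (23 probe sets, 16 genes) included 1 that differed between the treatments (4.35% of the class, beside 3.91% of all probe sets). Slc11a1 on chromosome 1 encodes NRAMP1, which moves iron and manganese out of phagosomes and is best known from macrophages. Probe set 96562_at gave 1.09, 1.24 and 0.663 in vehicle, 0.492, 0.978 and 0.374 in RA and 2.37, 3.91 and 3.41 in TSA. TSA arrays lay above all others. Slc11a1 differed between RA and TSA by -2.38 ± 0.38 (adjusted p = 0.0137, limma), and TSA against vehicle gave 1.66 ± 0.38 (0.055), which passed after centring. The difference between RA and TSA ended without RA replicate 1 or TSA replicate 2 or 3 (0.0541 to 0.0651).

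The iron transporter of most cells, Slc11a2, gave different values in its 2 probe sets. In TSA 104451_at read 0.576, 0.551 and 0.408 against 1.14, 0.981 and 0.881 in vehicle, a change of -0.91 ± 0.25 (adjusted p = 0.0939, limma), while 102642_at gave -0.01 (0.19 after centring). The zinc exporter Slc30a1 had changes of -0.49 and -0.54, with overlapping arrays. The zinc importer Slc39a4 had -0.49 in RA and 0.23 in TSA by 97320_at, and -0.15 and -0.19 by its other probe set. Slc39a1, of the same family, had -0.42 in RA and 0.06 in TSA by 100373_at, and -0.46 and -1.08 by 96832_at. No metal transporter passed against vehicle by limma, with 1 higher and 1 lower in each treatment at an unadjusted p under 0.05. Of all probe sets 4.64% were higher and 8.03% lower at that p in RA, and 7.41% and 12.2% in TSA. The class median was -0.04 in RA and -0.19 in TSA and turned to 0.12 and 0.01 after centring.

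Of the 3 nucleoside transporter probe sets, 1 differed between treatments (33.3%, beside 3.91% of all probe sets). It was 1 of the 2 of Slc29a1, the equilibrative nucleoside transporter ENT1 on chromosome 17. Probe set 95733_at gave 1.1, 1.05 and 0.849 in vehicle, 0.516, 0.526 and 0.556 in RA and 1.28, 1.42 and 1.04 in TSA. RA arrays lay below all others, and TSA and vehicle overlapped. RA against TSA gave -1.14 ± 0.19 (adjusted p = 0.0166, limma) and RA against vehicle -0.84 ± 0.19 (0.092). The call ended without RA replicate 1 or 2 or TSA replicate 1 or 2 (0.0638 to 0.0793) and when averaged with 161687_r_at, whose difference was -0.36. In RA against vehicle 161687_r_at had the opposite sign, 0.52.

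Mitochondrial carriers of the Slc25 family (24 probe sets, 20 genes) passed once, in TSA (4.17% of the class, beside 3.48% of all probe sets). Slc25a5 on the X chromosome encodes ANT2, the ADP/ATP exchanger of dividing cells, and its probe set 100618_f_at gave 1.08, 1.16 and 0.754 in vehicle, 0.636, 0.568 and 0.537 in RA and 0.501, 0.43 and 0.493 in TSA. Both treated groups lay below vehicle, TSA lowest. It fell in TSA by 0.98 ± 0.21 on the log2 scale (adjusted p = 0.041, limma), a call that held in 1 of 9 fits without 1 array, the one without vehicle replicate 3 (0.0611 to 0.173 in the others), and ended after centring. Its other probe sets, 100617_at and 100619_r_at, gave -0.64 and -0.62 in TSA and did not pass. In RA they gave -0.06 and -0.38, where 100618_f_at gave -0.72, and none passed. Several sequences close to Slc25a5 exist in the genome, and the _f suffix marks a probe set shared by related sequences, so its signal may mix them.

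The heart and muscle isoform Slc25a4 had the opposite sign in TSA, with 1.44, 1.71 and 1.59 against 1.19, 0.973 and 0.835 and no overlap, a change of 0.64 ± 0.19 (adjusted p = 0.113, limma). In RA no probe set of the class passed by limma, with none higher and 4 lower at an unadjusted p under 0.05 (4.64% and 8.03% of all probe sets). The class median was -0.08 in RA and -0.26 in TSA, where 17 of 24 probe sets had negative changes (70.8%, beside 63.9% of all probe sets), and centring moved these medians to 0.08 and -0.06.

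In 3 classes, of neurotransmitters, of nucleotide sugars and of organic ions, no probe set passed in any comparison by limma, with 2 higher in RA than in TSA in each class and 2, 1 and 1 lower at an unadjusted p under 0.05 (8.36% and 8.69% of all probe sets). Of the neurotransmitter and osmolyte transporters (14 probe sets, 10 genes), 3 were lower in RA and 4 in TSA at an unadjusted p under 0.05, and none was higher. Of all probe sets 8.03% were lower in RA and 12.2% in TSA at that p. The taurine transporter Slc6a6 gave -0.57 and -0.43 in RA and -0.59 and -0.47 in TSA, with treated arrays below vehicle in both probe sets. The creatine transporter Slc6a8 gave similar values in its 2 probe sets, -0.96 and -0.84 in RA, 0.46 and 0.45 in TSA, and -1.42 (adjusted p = 0.052) and -1.29 (0.302) in RA against TSA. The dopamine transporter Slc6a3 had -0.81 in TSA (0.133).

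Nucleotide sugar and other Golgi and ER carriers (13 probe sets, 12 genes) had 1 higher and 1 lower in TSA and none either way in RA at an unadjusted p under 0.05. In TSA 7.41% of all probe sets were higher and 12.2% lower at that p. The acetyl-CoA transporter Slc33a1 gave 2.03, 1.77 and 2.15 in TSA against 1.47, 0.859 and 0.667 in vehicle, without overlap, and its change of 1.02 ± 0.28 (adjusted p = 0.0866, limma) passed after centring. Of 13 probe sets 11 had negative changes in TSA (84.6%, beside 63.9% of all probe sets), a class median of -0.24 that centring moved to -0.04. Slc35c2, a Golgi carrier, gave -0.31 in RA.

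Organic cation, anion and peptide transporters (11 probe sets, 11 genes) had 2 higher in RA and 1 lower in TSA at that p (4.64% and 12.2% of all probe sets). The carnitine transporter Slc22a21 gave 2.48, 2.01 and 2.3 in RA against 1.07, 0.59 and 1.34 in vehicle and 1.31, 1.31 and 0.792 in TSA. RA arrays lay above all others, and the change was 1.21 ± 0.32 (adjusted p = 0.138, limma). The organic anion transporter Slc22a6 had -0.73 in TSA (0.189).

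**Figure D3:**
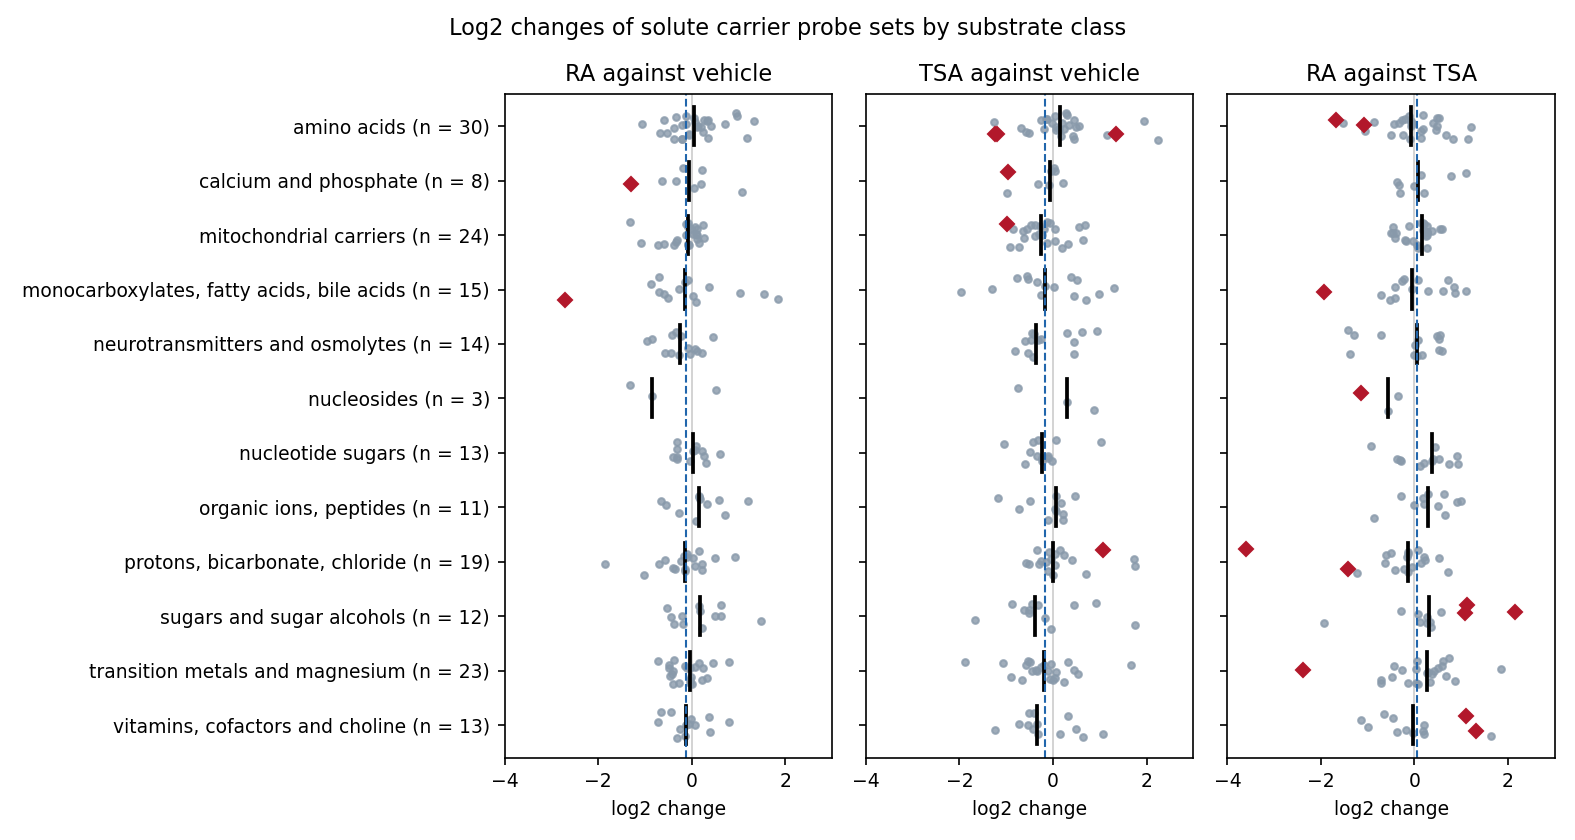
Log2 change of every solute carrier probe set by substrate class, for RA against vehicle, TSA against vehicle and RA against TSA; diamonds passed the test, black bars are class medians and the dashed line is the median of all probe sets. Most points lie within 1 of zero, and the sugar class sits above the dashed line in RA and below it in TSA.

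In 29 genes several probe sets measured the same symbol, which gives a second reading that the selection did not use. The 63 probe sets disagreed in sign within 12 of the 29 genes in RA and 10 in TSA, and the range within a gene exceeded 1 in 5 and 6 genes. The median range was 0.352 in RA and 0.419 in TSA. Slc2a3, Slc6a6 and Slc6a8 had close pairs, while Slc10a1, a bile acid transporter of liver, ran from -0.59 to 1.85 in RA over 3 probe sets and Slc30a4, a zinc exporter, from -1.88 to 0.54 in TSA. These 2 wide examples were chosen after their values were seen. Replicate arrays differed most in vehicle: the median SD of the carriers' log2 values was 0.371 in vehicle, 0.318 in RA and 0.250 in TSA.

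**Figure D4:**
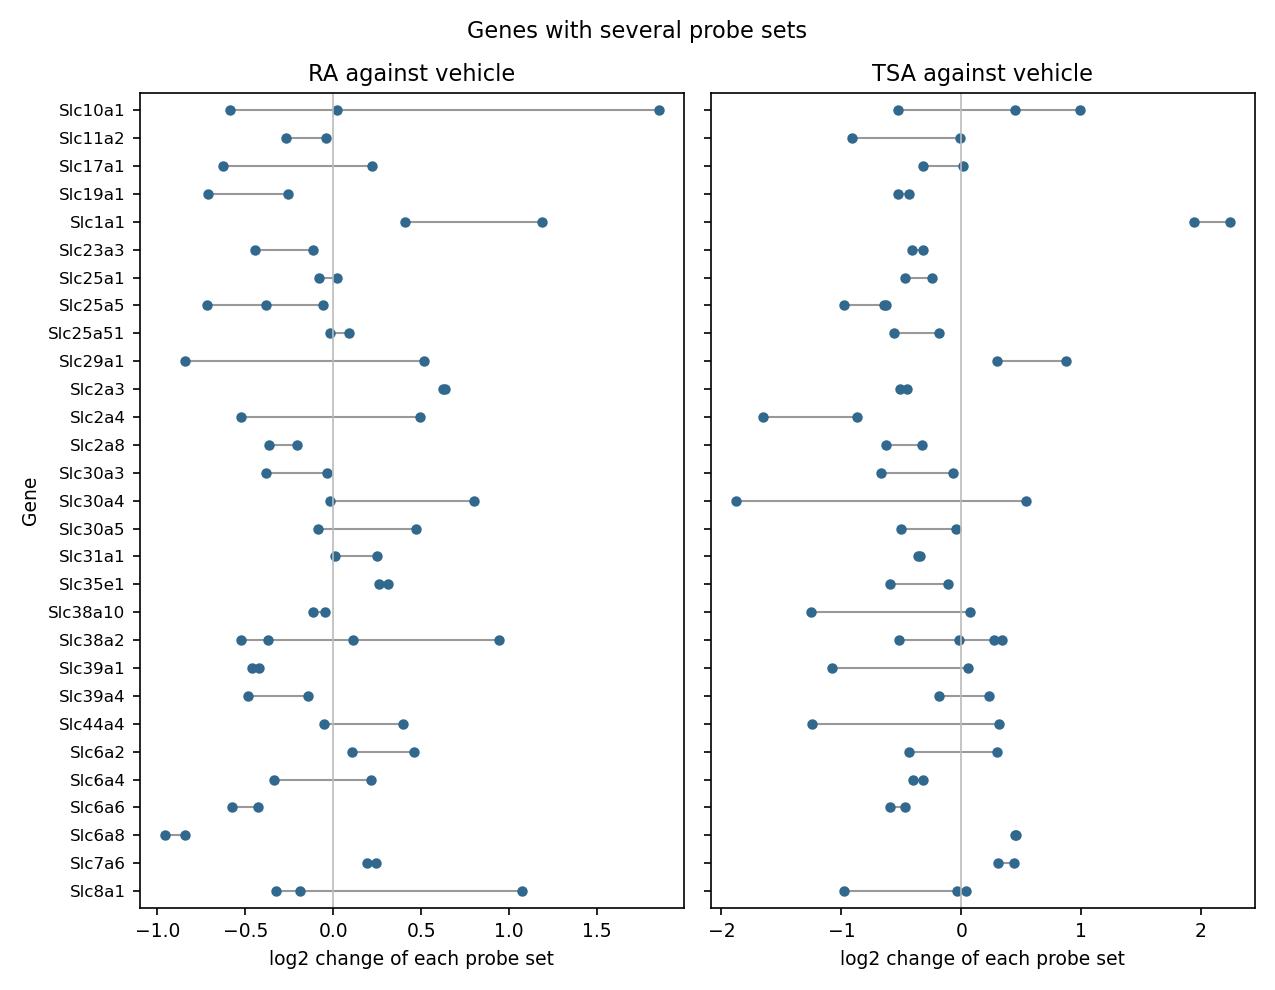
Log2 change of each probe set of the 29 solute carrier genes with several probe sets, in RA and in TSA against vehicle; points are probe sets and a grey line joins those of 1 gene. Pairs of Slc2a3, Slc6a6 and Slc6a8 nearly coincide, and lines that cross zero belong to the 12 genes in RA and 10 in TSA whose probe sets differ in sign.

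Genes that do not meet the symbol rule were taken from a list of transport partners (31 probe sets, 22 genes). Some work beside the carriers and some are transporters themselves. Among them are carrier chaperones, sodium pump subunits, hexokinases, uncoupling proteins, metallothioneins and fatty acid binding proteins. In RA none passed by limma, with 2 higher and 6 lower at an unadjusted p under 0.05 (4.64% and 8.03% of all probe sets). In TSA 3, of 3 genes, rose (9.68%, beside 3.48% of all probe sets), and RA against TSA called 5, all higher in TSA (16.1%, beside 3.91%). Txnip, which promotes removal of glucose transporters from the membrane, gave 4.33, 7.89 and 5.41 in TSA against 1.02, 1.13 and 0.851 in vehicle and 1.26, 1.11 and 1.7 in RA. Its rise in TSA was 2.46 ± 0.27 (adjusted p = 0.00345, limma), and RA against TSA gave -2.05 (0.00648), all from probe set 160547_s_at. The other probe set of Txnip, 160548_at, gave -0.18 in TSA (0.746) and -0.03 in RA against TSA.

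The zinc-binding metallothionein Mt1 gave 0.322, 0.234 and 0.332 in RA, 2.85, 3.1 and 3.42 in TSA and 1.28, 1.33 and 0.393 in vehicle. RA and TSA lay on either side of vehicle, and their difference was -3.21 ± 0.41 (adjusted p = 0.00583, limma), with -1.48 (0.0269) for Mt2. The fatty acid binding protein Fabp3 differed in the same direction by -1.60 (0.00885). Probe set 93664_at of the sodium pump subunit Atp1b2 rose in TSA by 3.17 ± 0.41 (0.0073), from 1.66, 0.785 and 0.56 in vehicle to 6.91, 11.8 and 7.66. Its other probe set, 93665_at, had the opposite sign (-0.45, 0.6), with 0.544, 0.593 and 1.01 in TSA against 1.41, 0.723 and 0.864. Probe set 99507_at of the mitochondrial uncoupling protein Ucp1 rose by 2.24 ± 0.46 (0.0363) and differed between RA and TSA by -2.45 (0.0235), while 161422_f_at gave 0.14 (0.857) and 0.0019. In all 3 genes that rose, then, 1 of 2 probe sets did not pass.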

How the data were processed

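RNA of 9 arrays, 3 each of vehicle, RA and TSA, was analysed, with groups and replicate numbers taken from the sample titles. The authors deposited 1 linear ratio per probe set and array, and per the labels the data went into GeneSpring. The vehicle mean is 1 in every row (largest deviation 1.93e-07), and the summarisation behind it is not given in the sources used here. Of 12488 probe sets, 66 controls were left out. The platform annotation gave 1 symbol for 10833 of the rest, several for 396 and none for 1193; all 185 solute carrier probe sets matched a RefSeq table (GRCm38.p6) by Entrez ID.

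Log2(ratio + 0.05) was fitted with limma 3.58.1 (R 4.3.3) over 9 arrays with 6 residual degrees of freedom, adjusted by Benjamini-Hochberg over 12422 probe sets, and called at 0.05. The procedure was tested on simulated data. P-values measure the spread between samples, which may be technical. Their number limits the precision, and depth has no meaning for arrays.

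The members and gene lists were chosen with earlier results of these data known. Probe sets named are those passing in any comparison with all probe sets of their genes, the smallest unadjusted p of each class in RA and in TSA, and 20 measured carriers of a fixed set of well-known ones, and transport partners that passed. Slc1a1, Slc1a2, Slc1a4, Slc1a6, Slc8a1, Slc10a1 and Slc30a4, and the lists in the closing section, lie outside this rule.

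Alternatives were pseudocounts of 0.01 and 0.1, centring, quantile normalisation, a filter on the lowest 30% by mean ratio, gene averages, separate fits for each pair of groups (6 arrays), a replicate block, a variance trend, and fits without each array or without the pair with the most 18S signal (vehicle replicate 3 and RA replicate 3).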

Additional observations from a re-analysis of the deposited data

How the results depend on the processing

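Of 373 values that the 20 calls took under these alternatives, 222 stayed past the threshold and 151 did not; none changed direction. Quantile normalisation ended 17 of the 20 calls, fits on the 6 arrays compared ended 10, and centring, gene averages and the smaller and larger pseudocounts ended 3, 3, 0 and 1. The call of Slc9a3r1 in RA against TSA held in 19 of 19 alternatives and that of Slc4a5 in 17 of 19.

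In RA against vehicle the 2 called probe sets became 0 with quantile normalisation, with the filter on low values, with the 6 arrays compared, with the variance trend and without the pair of arrays highest in 18S, and 1 with the replicate block; where none passed by limma, 17 to 27 did at an unadjusted p under 0.05. Leaving out 1 array gave 0 to 4. In TSA against vehicle the 6 became 0 with quantile normalisation and with the 6 arrays compared (22 and 37 at an unadjusted p under 0.05), 2 with the filter, and 3 with the trend and without that pair; leaving out 1 array gave 0 to 8. The 12 of RA against TSA became 3 with quantile normalisation, and 3 to 14 without 1 array. Without vehicle replicate 3 the counts were 4 in RA, 8 in TSA and 14 in RA against TSA. The filter removes probe sets that fell. Fits on fewer arrays have fewer degrees of freedom, but the part of this in the counts was not tested, nor were other causes. With quantile normalisation the share of all probe sets called fell as well, to 0.7%, 0.869% and 1.22%.

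The carriers' median change turned from -0.07 to 0.0918 (centred), 0.0645 (quantile) and 0.0682 (filter) in RA and from -0.12 to 0.0837, 0.00574 and 0.0369 in TSA. Without 1 array it ran from -0.119 to -0.0335 in RA, from -0.165 to -0.0967 in TSA and from 0.0274 to 0.130 in RA against TSA.

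Arrays of different groups were also compared after the group mean of each probe set was subtracted from its log2 values. On what was left, same-numbered arrays correlated at -0.0317 to 0.289, over 0.1 in 4 of 9 pairs. An array correlated best with its own number in 10 of 18 cases, where 1 of the 3 arrays of each other group has that number. On these values arrays numbered 3 correlated at 0.289 (vehicle and RA), 0.237 (vehicle and TSA) and 0.19 (RA and TSA). Those numbered 2 lay between -0.0317 and 0.0316. Whether the numbers mark shared handling was not tested. With the replicate block 1, 4 and 12 solute carrier probe sets passed in RA, TSA and RA against TSA.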

Other observations

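Transporters and channels outside the SLC families were read from lists made with earlier results of these data known. The ABC transporters (28 probe sets, 25 genes) pump lipids, drugs and metabolites with ATP. Of their probe sets 1 rose in TSA and 2 differed between the treatments. These were 3.57% and 7.14% of the list, beside 3.48% and 3.91% of all probe sets. None passed in RA by limma, with 1 higher and 6 lower at an unadjusted p under 0.05 (4.64% and 8.03% of all probe sets). Abcb1a, a drug efflux pump, gave 8.74, 13.6 and 6.03 in TSA against 1.28, 0.672 and 1.04 in vehicle, a rise of 3.14 ± 0.62 (adjusted p = 0.032, limma with Benjamini-Hochberg adjustment), while RA gave 0.959, 5.07 and 4.58. Its neighbour Abcb1b gave 0.596, 0.435 and 0.179 in RA and 1.9, 1.81 and 1.41 in TSA, a difference of -2.07 ± 0.38 (0.0228). The cholesterol exporter Abca1 differed in the same direction by -1.70 ± 0.30 (0.0202) in 94354_at and by -0.80 (0.171) in 97198_at, which did not pass.

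Of 51 potassium channel probe sets (42 genes), 1 fell in TSA and 2 were higher in RA than in TSA. These were 1.96% and 3.92% of the list, beside 3.48% and 3.91% of all probe sets called either way. None passed in RA by limma, with 2 higher and 1 lower at an unadjusted p under 0.05 (4.64% and 8.03% of all probe sets). Kcnd2, a voltage-gated channel of neurons and heart, gave 0.0856, 0.185 and 0.19 in TSA against 0.637, 0.914 and 1.45 in vehicle and 0.756, 1.11 and 1.93 in RA. It fell in TSA by 2.34 ± 0.42 on the log2 scale (adjusted p = 0.0228, limma) and differed between RA and TSA by 2.64 (0.0133). These values are those of 98364_at; its other probe set, 99339_r_at, gave -0.0094 in TSA (0.998) and 0.73 in RA against TSA (0.738). Kcnh2, the channel of the rapid cardiac repolarising current, was higher in RA than in TSA by 1.00 ± 0.18 (0.0202), with no overlap among the groups. The 8 aquaporin probe sets passed in no comparison by limma, with 1 lower in RA at an unadjusted p under 0.05 (8.03% of all probe sets). Of 26 probe sets of P-type ATPases and their subunits, 1 of the 2 of Atp1b2 alone passed, in TSA (3.85%, beside 3.48% of all probe sets).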
